A study of Mus musculus with 2 samples.

Results

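Genes for making, moving, destroying and sensing adenosine were examined on the arrays of mouse macrophages grown from bone marrow (BMDMs), which had been given medium or the supernatant of apoptotic cells. The members were chosen by role, without use of their signals, though with earlier results of these data known. They are Nt5e and Entpd1, enzymes of the cell surface that make adenosine, Slc29a1 and Slc29a2, its carriers across the membrane, Ada and Adk, the enzymes that consume it, and Adora3, one of its receptors. These 7 genes, of 18194 genes named on the array, are read by 18 of the 34958 probe sets that the array's annotation gives to a single gene, and all 18 are reported. The other adenosine receptors were not analysed here.

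There were 2 arrays, 1 per condition. The macrophages were grown with M-CSF for more than 7 days from bone marrow of female C57BL/6J mice aged 8 weeks, and stayed for 1 hr in RPMI with 10% FCS or in the supernatant. The supernatant came from W3 cells, a mouse T cell line made to express the death receptor Fas, which were exposed to human Fas ligand for 30 min, washed, and kept for 60 min in RPMI with 1% FCS. The 2 incubations therefore also differed in serum, and neither array held the supernatant of living W3 cells, so apoptosis, serum and conditioning of the medium cannot be told apart.

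Extracellular adenosine is made in steps. Entpd1 (CD39) removes phosphates from ATP and ADP to leave AMP, and Nt5e (CD73), an ecto-5′-nucleotidase anchored in the membrane, converts AMP to adenosine. Adenosine then acts on G-protein coupled receptors of the cell surface, which raise or lower cyclic AMP. Its signal ends when the equilibrative transporters Slc29a1 (ENT1) and Slc29a2 (ENT2) carry it into the cell, where Adk (adenosine kinase) turns it back into AMP and Ada (adenosine deaminase) turns it into inosine. In macrophages adenosine is known for restraining inflammatory cytokines. The study asked whether factors from apoptotic cells alter macrophage gene expression, and the array readout of this pathway bears on the macrophage side of that question.

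The annotated starts of Nt5e and Entpd1 are shown first, because these enzymes carry out successive steps to adenosine and Nt5e had the largest difference between the arrays. The 250 bases before each start are printed 5′ to 3′ on the strand of the gene, from RefSeq on build GRCm38.p6, and capitals mark the core site of the cyclic AMP response factor CREB, TGACG or its complement CGTCA.
Nt5e, chr9:88327359-88327608, + strand: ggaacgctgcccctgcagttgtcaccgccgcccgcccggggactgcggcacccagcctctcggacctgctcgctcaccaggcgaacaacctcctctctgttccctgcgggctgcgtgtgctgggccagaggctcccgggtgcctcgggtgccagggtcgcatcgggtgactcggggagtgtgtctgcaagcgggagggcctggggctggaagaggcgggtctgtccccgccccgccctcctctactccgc
Entpd1, first start, chr19:40612116-40612365, + strand: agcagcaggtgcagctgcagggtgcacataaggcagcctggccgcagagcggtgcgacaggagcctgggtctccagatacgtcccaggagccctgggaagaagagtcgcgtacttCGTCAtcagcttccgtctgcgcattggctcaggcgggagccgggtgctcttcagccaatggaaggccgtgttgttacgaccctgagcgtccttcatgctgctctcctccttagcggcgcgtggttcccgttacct

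The Nt5e promoter holds no capitals, whereas the first Entpd1 promoter holds a core site that begins 135 bases before the start. All 7 genes matched the promoter table, with 16 annotated starts among them. In windows from 250 bases before to 50 after each start, searched on both strands, the core site TGACG occurred at 4 starts, which belong to Entpd1, Adk and Slc29a1. Among all 32851 windows 20.8% hold it. The whole CREB site TGACGTCA, which contains the core site, was at none of the 16 starts and at 1.79% of all. The site AAAGGTCA, bound by single Nr4a receptors, was also at none of them and at 1.51% of all. The remaining core sites, in windows cut at the start, are shown so that they can be set beside the expression values of their genes.
Entpd1, second start, chr19:40659567-40659611, + strand: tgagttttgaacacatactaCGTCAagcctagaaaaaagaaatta
Adk, first start, chr14:21052542-21052573, + strand: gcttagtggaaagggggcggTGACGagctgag
Slc29a1, seventh start, chr17:45593686-45593730, - strand: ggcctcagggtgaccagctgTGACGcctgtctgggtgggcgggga
The Adk core site begins 12 bases before its start and the Slc29a1 core site 61 bases before. The Nt5e promoter was rich in G and C, at 72.0% of its 250 bases, and held 21 CG pairs, against medians of 52.4% and 6 over all promoters. The Adora3 promoter, at 48.8%, held 0 CG pairs. These matches describe the letters of the windows only.

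The deposited values are MAS5 signals, intensities that are linear and not logarithmic. A signal was taken as readable above a floor of 38.4. It was set from 80 probe sets of olfactory and vomeronasal receptors, genes of sensory neurons, as their 95th percentile on the array where that was higher. The highest signal among these receptor probe sets was 62.4. Signals below the floor were raised to it for every ratio, so a ratio with 1 such signal is a lower bound. Each gene was represented by its brightest probe set, and 11977 of the 18194 named genes (65.8%) exceeded the floor on 1 array or both. Such a gene counts as measured. Without replicates no difference has an SD or a p-value, and the precision is limited by the number of arrays. The files do offer the disagreement between probe sets of a gene. They also offer the SD of log2 ratios over genes, given below by signal. The log2 ratios of the 2 brightest probe sets disagreed with an SD of 0.25 per probe set over 5196 genes, which covers no error between arrays or cultures.

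All 9 macrophage markers on the array were above the floor in both conditions, from 471 to 32154 with medium and from 1050 to 31345 with the supernatant, and 1 of them, the engulfment receptor Mertk, was 2.23-fold higher with the supernatant (471 and 1050). Of 10 T cell markers, 7 were under the floor on both arrays, among them Cd3d, Cd3e, Cd3g and Thy1, and their summed signal over all 10 was 774 with medium and 702 with the supernatant. The T cell markers above it went both ways. Cd5 (65.9 with medium, 42.8 with the supernatant) and Cd28 (393 and 283) were lower with the supernatant, and Zap70 (208 and 313) was higher. Under the floor on both arrays were also 2 of 4 markers of B cells, 3 of 6 of neutrophils, 4 of 5 of mast cells and 3 of 3 of erythroid cells. Of the neutrophil markers 1 of 6 was above the floor with medium and 3 with the supernatant, and their summed signal was 423 and 615. Among them S100a9 read 5.85 and 73.0, and Elane 9.89 and 51.8. The part of these markers in the differences described here was not tested. As these are bulk samples, fewer cells of a type and less RNA per cell cannot be told apart.

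Each of the 7 genes had a probe set above the floor on at least 1 array, against 65.8% of all named genes. On both arrays 5 of the 7 were above it, namely Nt5e, Entpd1, Ada, Adk and Slc29a1, against 58.8% of all. Adora3 exceeded the floor on the supernatant array only and Slc29a2 on the medium array only. By probe set, 9 of 18 were above the floor on both arrays, against 56.2% of all single-gene probe sets, 5 on 1 array and 4 on neither, against 36.6%. At the floor itself, the second Slc29a2 probe set read 38.4 with the supernatant, just above it, and the nearest below it was the third Entpd1 probe set with medium, at 36.8. Only 8 of the 18 probe sets exceeded, on either array, the brightest of the olfactory and vomeronasal receptors.

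**Figure D1:**
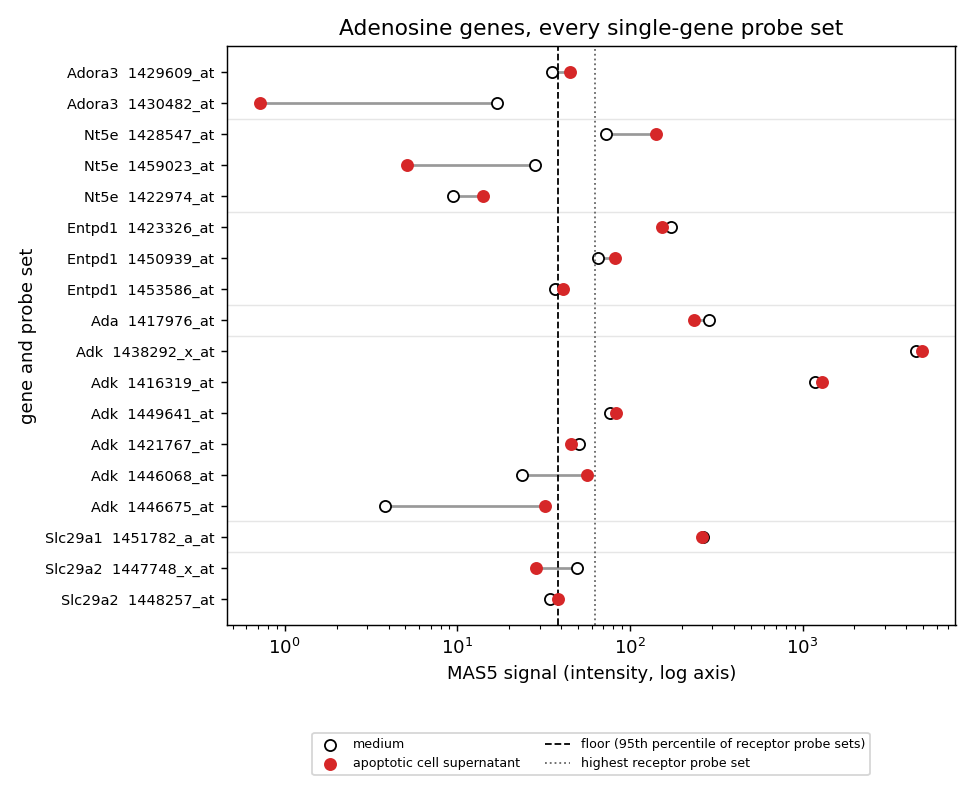
MAS5 signal (intensity, log axis) of each of the 18 single-gene probe sets of the 7 adenosine genes, medium as open circles and supernatant as filled circles, 1 array each; the dashed line is the floor of 38.4 and the dotted line the highest olfactory or vomeronasal receptor signal, 62.4. The brightest Nt5e probe set moves from 72.4 to 141 while its other probe sets lie left of the floor, and the brightest Adk probe sets and Slc29a1 lie almost unmoved far to the right.

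Nt5e, the enzyme that turns AMP into adenosine, had the largest difference of the 7 genes. Its brightest probe set (1428547_at) read 72.4 with medium and 141 with the apoptotic cell supernatant. The supernatant signal was thus 1.95-fold higher, a log2 ratio of 0.96, just short of the 2-fold threshold used for calls. The other probe sets of Nt5e gave no reading above the floor. The first (1459023_at) read 28.1 and 5.13, and the second (1422974_at) 9.49 and 14.1, so the difference rests on 1 of 3 probe sets. With all 3 averaged on the log2 scale, Nt5e was under the floor on both arrays and no difference could be read.

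No member passed 2-fold in either direction as the signals were deposited, while 115 of the 11977 measured genes (0.960%) passed it upward and 101 (0.843%) downward. The Nt5e ratio lay so near the threshold that the scaling of the arrays decided the call. It was 2.09-fold with the medians of all probe sets made equal, 2.05-fold after quantile normalization and 2.08-fold after loess. The first of these raised the log2 ratio by 0.10 where both signals were above the floor, and the counts over all genes became 160 higher and 67 lower. They were 137 and 66 after quantile normalization and 145 and 70 after loess. Nt5e also passed a threshold of 1.5-fold, chosen after the data were seen, which 444 measured genes (3.71%) passed upward and 535 (4.47%) downward. No other member passed it in floored signals. The Slc29a2 ratio is a bound, and without the floor its brightest probe set was 1.72-fold lower with the supernatant.

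Of the 11977 measured genes, 130 (Nt5e among them) had a log2 ratio at least as high as that of Nt5e. Dim genes spread more widely between the arrays than bright ones, and Nt5e, with a geometric mean signal of 101, lay at the dim end. For genes readable on both arrays with a mean signal up to 100, the log2 ratio had an SD of 0.48 and 8.90% were at least 1.5-fold higher. From 100 to 400 the SD was 0.40 and the share 3.58%, and above 1600 they were 0.17 and 1.12%. The genes with the log2 ratio nearest to that of Nt5e were Avpi1, at 1.95-fold (816 and 1588), the circadian repressor Per1, at 1.95-fold (249 and 486), and Sapcd2, at 1.94-fold (72.0 and 140). This likeness is over 2 arrays only.

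**Figure D2:**
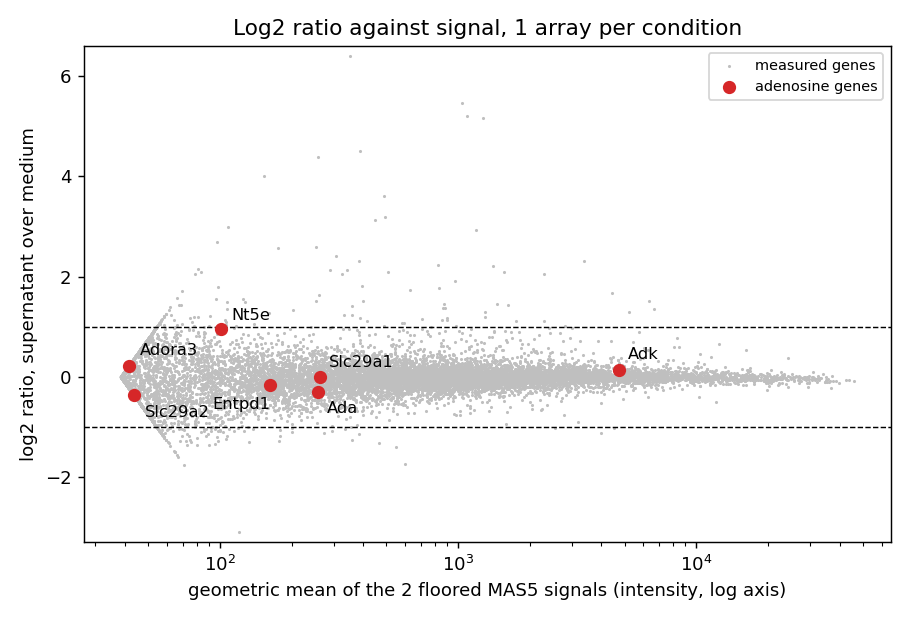
Log2 ratio of supernatant to medium, after flooring, against the geometric mean of both floored MAS5 signals (intensity, log axis) for the 11977 measured genes (grey), 1 array per condition, with the 7 adenosine genes in red and dashed lines at a 2-fold difference. Nt5e sits at 0.96, just under the upper dashed line and in the dim, widely spread range, and the other 6 lie between -0.36 and 0.22.

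Entpd1, which supplies Nt5e with AMP, showed no shared direction among its probe sets. The brightest (1423326_at) read 172 in medium and 153 in the supernatant, 1.12-fold lower. The next (1450939_at) read 65.6 and 82.0, 1.25-fold higher. The third (1453586_at) was under the floor with medium (36.8) and just above it with the supernatant (40.9). The log2 ratios of the first and second, -0.17 and 0.32, thus lay on opposite sides of 0. With all 3 averaged on that scale the log2 ratio was 0.10.

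The transporters differed in whether they could be read. Slc29a1, which moves adenosine down its gradient in either direction, read 263 with medium and 261 with the supernatant on its single probe set. Its log2 ratio of -0.01 was the smallest in size of the 7 genes and became 0.04 to 0.09 under the other scalings. Slc29a2, the second equilibrative carrier, read 49.4 with medium and 28.7 with the supernatant on its brighter probe set (1447748_x_at). Against the floor this was at least 1.29-fold lower. Its other probe set (1448257_at) read 34.7 and 38.4, a floored ratio of 1.00. All 4 Slc29a2 signals lay under the brightest olfactory or vomeronasal receptor, 62.4.

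The enzymes that clear adenosine were both readable on both arrays, with Adk slightly higher and Ada lower with the supernatant. Adk, the kinase that returns adenosine to the nucleotide pool, read 4513 with medium and 4946 with the supernatant on its brightest probe set (1438292_x_at). A second (1416319_at) read 1178 and 1290. Both were 1.10-fold higher, with log2 ratios of 0.13. The next probe sets were dimmer, reading 76.9 and 82.6 (1449641_at) and 50.9 and 45.7 (1421767_at). One more (1446068_at) read 23.7 with medium and 56.5 with the supernatant, at least 1.47-fold higher. The last (1446675_at) was under the floor on both arrays, at 3.84 and 32.3. Probe sets of Adk therefore covered signals from under the floor to 4946, and the 4 above the floor on both arrays had log2 ratios between -0.16 and 0.13.

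Ada, the deaminase that makes inosine from adenosine, read 287 in medium and 234 in supernatant on its only probe set, 1.23-fold lower. Its log2 ratio was -0.30, and -0.24 to -0.19 under the other scalings. Of the measured genes, 14.0% had a ratio at least as low.

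Adora3, the A3 adenosine receptor, was dim on both arrays. One probe set (1429609_at) read 35.3 with medium and 44.9 with the supernatant, at least 1.17-fold higher against the floor. The other (1430482_at) read 16.9 and 0.72, under the floor on both. None of these signals exceeded the brightest olfactory or vomeronasal receptor. In the RefSeq annotation Adora3 lies within the span of another gene, Tmigd3, and the array's annotation names no probe set for Tmigd3 alone, so the arrays were not used to separate them.

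Across the 7 genes the median log2 ratio was -0.01, against -0.02 over all measured genes. Of the 7, on their brightest probe sets, Entpd1, Adk and Slc29a1 had a log2 ratio smaller in size than the probe-set SD of 0.25. Ada, Slc29a2 and Nt5e had a larger one. Ada was inside this SD under the other scalings, at -0.24 to -0.19. Slc29a2 and Nt5e exceeded it on no other probe set. At mean signals from 100 to 400, where Ada lay, log2 ratios over genes had an SD of 0.40. Adora3 could not be placed, because its floored log2 ratio of 0.22 is a bound and was 0.34 with no floor. Of the 9 probe sets readable in both conditions, 5 were higher with the supernatant and 4 lower. As deposited, without the floor, 2 probe sets were at least 2-fold higher with the supernatant, both of Adk, and 2 at least 2-fold lower, 1 each of Adora3 and Nt5e, and all 4 had a medium signal under the floor.

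A wider list of purine genes was chosen by function and not for how they moved, though with earlier results of these arrays known. Of its 43 genes with a probe set of their own, 35 were measured, 31 of them on both arrays. In floored signals none was at least 2-fold higher or lower, against 0.960% and 0.843% of all measured genes. The median log2 ratio of the 35 was -0.05. The lowest ratio, -0.45 for Dpp4, is a bound, as its signals were 52.6 with medium and 5.73, under the floor, with the supernatant. Of the 35, 27 had a floored log2 ratio smaller than 0.25 in size. Among these 27, Alpl and Uox were above the floor on 1 array only, so their ratios are bounds.

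At the cell surface, 4 of 6 other ectonucleotidases and phosphatases were measured, against 65.8% of all named genes, with a median log2 ratio of 0.24. Entpd3 (4.56 with medium, 51.3 with the supernatant) and Alpl (26.4 and 42.5) counted as measured through the supernatant array only. Their ratios are bounds that could only be positive, so no rise of the list is read from this median. Entpd2, an enzyme that removes a phosphate from ATP, read 60.5 with medium and 74.4 with the supernatant, and Acpp, an acid phosphatase that can act on AMP, read 39.2 and 44.5. Both are dim, and Entpd3, Alpl and Acpp did not exceed 62.4. Inside the cell, Entpd6 read 211 and 279, 1.32-fold higher, and Entpd7 839 and 918. Of 5 measured cytosolic and mitochondrial nucleotidases, none had a log2 ratio beyond -0.13 or 0.11 on its brightest probe set. Nt5m read 771 and 705, and Nt5c3 1172 and 1075. Other probe sets of these genes above the floor on both arrays, which belong to Nt5c2 and Nt5c3b, were all lower with the supernatant. Their log2 ratios ran from -0.59 (Nt5c3b) to -0.15 (Nt5c2).

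Slc29a3 (ENT3), a nucleoside transporter of lysosomes, was lower with the supernatant on both its probe sets, at 675 and 495 on the brighter (1.36-fold lower) and 192 and 96.3 on the dimmer, a log2 ratio of -0.99. Slc29a4, a carrier of monoamines and adenosine, read 187 and 178. Adal, an adenosine deaminase-like protein, read 152 and 132.

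Beyond adenosine, purine breakdown showed differences in both directions. Gda, which deaminates guanine, was higher with the supernatant on all 3 probe sets, with log2 ratios of 0.42 on the brightest (760 and 1020), 0.54 and 0.27. Xdh, the enzyme that makes uric acid, read 1431 and 1075 on its probe set, 1.33-fold lower. Among adenylate kinases and AMP deaminases, Ak1 read 135 and 102, and Ampd3 2261 and 1951. On their brightest probe sets, the hydrolases of S-adenosylhomocysteine, an intracellular source of adenosine, had log2 ratios from -0.09 to -0.01. Ahcy read 3457 and 3245, and Ahcyl1 2717 and 2630. Their other probe sets had log2 ratios from -0.44 (Ahcyl1, 876 and 645) to 0.06 (Ahcyl2, 168 and 175). Of the 5 genes of AMP and GMP synthesis, Gmps read 2181 and 2314 on its brightest probe set and Adssl1 1942 and 1853. The other Gmps probe sets were lower with the supernatant, 1 at 194 and 170 and 1 at 167 and 132.

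**Figure D3:**
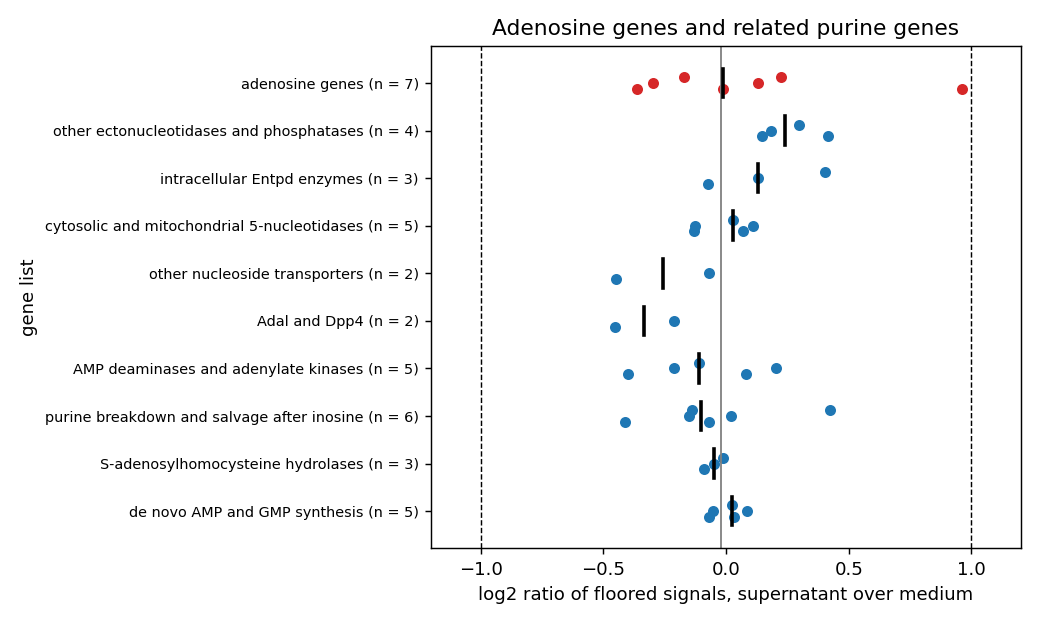
Log2 ratio of supernatant to medium, after flooring, of each measured gene (points) of the adenosine genes (red) and of 9 related lists (blue), with the median of each list as a bar, the median of all measured genes (-0.02) as a grey line and dashed lines at a 2-fold difference. Nt5e, at 0.96, is the only point near a dashed line, and the related genes lie between -0.45 and 0.42. Points of genes above the floor on 1 array only are bounds, among them Dpp4, the lowest, and Entpd3.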

How the data were processed

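RNA of BMDMs kept with medium or with apoptotic cell supernatant was hybridized to Affymetrix mouse genome arrays, 1 per condition. The authors made MAS5 signals, 1 intensity for each probe set, and deposited them; the name MAS5 comes from the submitters' processing notes. The mean after trimming 2% at each end was 500.0 on both arrays, so each carries a single scaling factor. Detection calls were not used here, and the genome build of the annotation is not given in the sources used here.

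Probe sets were named from the array's annotation table, and 932 probe sets given to several genes were left out. The floor, the brightest probe set by mean signal, and a call at 2-fold were used with Python 3.11.15, numpy 2.4.6, pandas 2.3.3, statsmodels 0.14.6 and matplotlib 3.10.9. No test was run. The steps were tested on simulated data, with changes larger than 2-fold planted in genes far above the floor. That test does not cover dim genes or smaller differences. Motifs were searched in RefSeq promoter windows of GRCm38.p6.

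The members and lists were chosen with earlier results of these data known. The rule named every member, and from each related list the genes past 2-fold, otherwise the 2 largest log2 ratios above the floor on both arrays. Slc29a3, Gda and the others follow it. Entpd3, Alpl, Uox, Dpp4, Nt5c2, Nt5c3b and Ahcyl2 fall outside it and were named after their values were seen. Alternatives were other scalings (equal medians, quantile, loess with a span of 0.3), floors, a pseudocount and other probe set choices.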

Additional observations from a re-analysis of the deposited data

How the results depend on the processing

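No paired analysis was possible because there is a single array for each condition, and no array could be left out. Of the log2 ratios, those of Ada and Slc29a1 moved by less than the probe-set SD of 0.25 under every alternative that gave a value. Slc29a1 has no probe set without a suffix. Adora3 also stayed within 0.25, but its log2 ratio was 0 with the doubled floor and with averaged probe sets. Both its signals were then under the floor, so this 0 is no reading of stability. The same holds for the values of 0 given below for Nt5e and Slc29a2. With the probe sets of a gene averaged on the log2 scale before flooring, the log2 ratio was 0.76 for Adk, 0.10 for Entpd1, 0 for Nt5e and -0.11 for Slc29a2. The Adk average takes in 1446068_at (23.7 and 56.5) and 1446675_at (3.84 and 32.3), both under the floor with medium. Nt5e was 0.69 with the floor added as a pseudocount. Slc29a2 was -0.78 with no floor, -0.78 with the floor at the receptor median, 0 with the doubled floor of 76.8 and 0.0011 with only probe sets without a suffix. The number of members at least 2-fold higher, 0 as reported, was 1 (Nt5e) with equal medians, 1 after quantile normalization, 1 with loess and 1 at 1.5-fold, the last chosen after the data were seen. Related genes at least 2-fold higher were 5 with no floor, 3 with the floor at the receptor median and 1 with the pseudocount, and lower 2, 2 and 1. All genes at least 2-fold higher were 1865 with no floor, 975 with the floor at the receptor median and 444 at 1.5-fold. Those lower were 67 with equal medians, 66 after quantile normalization, 2116 with no floor, 27 with the doubled floor, 1158 with the floor at the receptor median, 157 with averaged probe sets and 535 at 1.5-fold. The cause was not tested. Adora3 and Slc29a2 were each above the floor on 1 array only, which leaves their ratios as bounds.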
